A study of Mus musculus with 18 samples.

Results

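The nuclear samples of cells given a biotinylated scrambled mimic (Scr) were compared with the nuclear samples of control cells. These were the 3 samples labelled Nuc_Scr and the 3 labelled Nuc_control, chosen by their labels, 6 of the 18 samples of the series. All were from N2A (Neuro2A), a wild type mouse neuroblastoma cell line, so the 3 samples of a group were samples of 1 line. The Scr cells received the mimic at 25 nM with the transfection reagent TransIT-X2, and the control cells were not transfected. The labels describe the pulldown for mimic-transfected cells and do not say separately what was done with the control lysate. The other groups held nuclear samples with biotinylated miR-92b and whole cell samples of all 3 treatments, again 3 in each. Nothing in the labels says that samples came from separate cultures, so p-values measure the spread between these samples, which may be technical.

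In this assay a small RNA duplex with a biotin is loaded into the cells, the nuclei are lysed, and whatever the biotin holds is collected on streptavidin beads and sequenced. A scrambled mimic is meant to match no transcript, so it shows which RNAs are collected without a designed target, and untransfected cells hold no biotinylated mimic. Nuclear RNA holds unspliced transcripts and noncoding RNAs such as Malat1, Neat1 and Xist that stay at chromatin or in nuclear bodies. RNAs translated in the cytoplasm, among them those for ribosomal proteins, and RNAs made inside mitochondria are poor in clean nuclei. A difference between Scr and control combines the reagent, the transfection, the mimic, the RNA it holds and any difference in how the lysates were handled, and these cannot be told apart here. The sequence of the scrambled mimic is not given in the sources used here, so none is printed.

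The nuclear libraries differed in how many kinds of RNA they held, and the difference ran across both groups. Reads on loci with a gene symbol numbered 3895609, 4301579 and 3752991 in control samples 1, 2 and 3, and 3754690, 5161739 and 4687351 in the Scr samples. Each locus groups the assembled transcripts that the authors gave a common identifier. When every library was thinned to 3752991 reads, at least 1 read was left on 20577, 19886 and 15732 loci in control and on 19785, 14729 and 14958 with Scr. The group means were 18732 ± 2621 (SD, n = 3) and 16491 ± 2855 loci, and an exact permutation test, two-sided, gave p = 0.2, where 3 samples against 3 cannot give less than 0.1. Control samples 1 and 2 and Scr sample 1 are called broad below, and control sample 3 and Scr samples 2 and 3 narrow. The names rest on this count of loci and are not in the labels.

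The narrow samples lacked RNAs that the broad samples held at low and middle levels. Over 4082 loci with a mean normalized count of 30 to 100 in the nuclear miR-92b samples, 3 reads or fewer were found at 0.049%, 0.171% and 10.9% of loci in the control samples and at 0.22%, 19.1% and 17.4% in the Scr samples. A normalized count is the number of reads divided by 1 size factor per sample. At a mean of 300 or more, none of the loci was so low in any of the 6 samples. Of 9536 loci with at least 50 normalized counts in each nuclear miR-92b sample, 187 had 3 reads or fewer in Scr sample 2 and 154 in Scr sample 3, and 18 of these were shared, 9.63% of the loci of sample 2 and 11.7% of those of sample 3. Control sample 3 had 62 such loci, and the broad samples had 0. Low loci are therefore given below with their value in every sample.

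**Figure D1:**
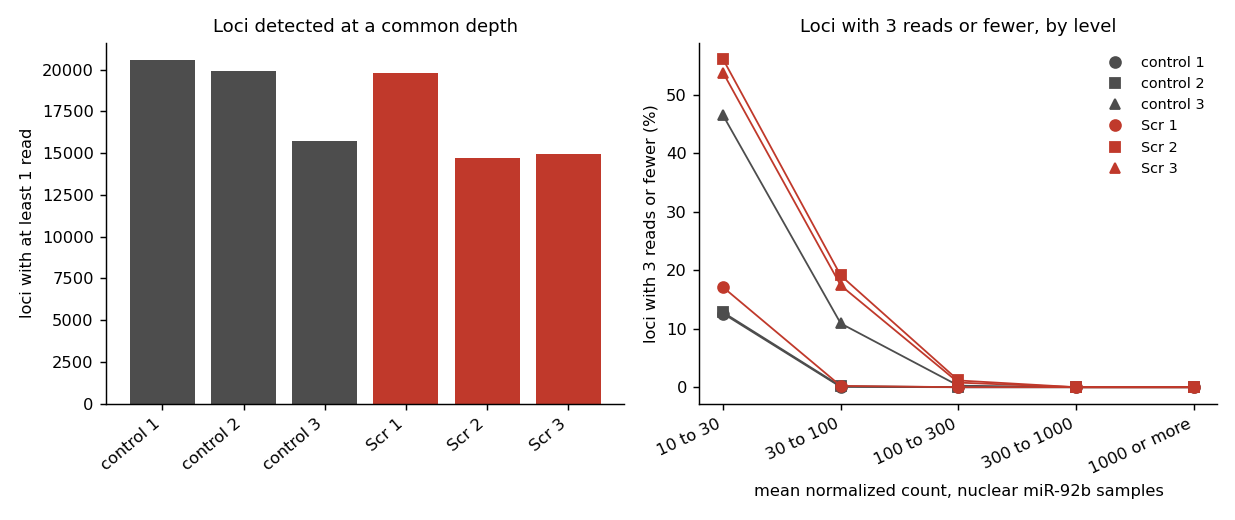
The left panel shows the number of loci with at least 1 read when each nuclear library is thinned to the same depth, and the right panel the percentage of loci with 3 reads or fewer against their mean normalized count in the nuclear miR-92b samples, with 1 line per sample. Control sample 3 and Scr samples 2 and 3 stand apart from the other 3 below a normalized count of 100, and all 6 samples meet at 0% from 300 upwards.

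The broad samples resembled each other, and the narrow samples resembled neither them nor each other as closely. The correlation of log2(normalized count + 1) over tested loci was 0.932 to 0.948 among the 3 broad samples, of both groups, and 0.798 to 0.835 between a narrow and a broad sample. Among the narrow samples it was 0.703 to 0.726, lowest between Scr samples 2 and 3. These are descriptions over loci of 1 experiment, with no test. No 2 samples held the same library, since the reads of the most similar pair, control sample 1 and Scr sample 1, differed by 4.11 times the sampling noise (chi-square per degree of freedom over 14234 loci). The pair of Scr samples 2 and 3 reached 33.8 times.

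No locus passed the test between nuclear Scr and nuclear control. limma on log2(normalized count + 1), fitted to all 18 samples, gave an adjusted p below 0.05 (Benjamini-Hochberg) at 0 of 15579 tested loci, 0%, and its smallest adjusted p was 0.838. Tested were loci that carried a symbol and averaged 10 or more normalized counts across the series. At an unadjusted p below 0.05 were 916 loci (5.88%), with higher values in Scr at 296 (1.9%) and lower values at 620 (3.98%). The quasi-likelihood test of edgeR on recovered reads also called 0 loci, with 422 (2.71%) at an unadjusted p below 0.05, and DESeq2 called 0, with 621 (3.99%). The groups did not overlap at 1349 loci (8.66%), 583 with higher values in all 3 Scr samples (3.74%) and 766 with lower values (4.92%). The values below are therefore given as measured levels, and none of the differences is a call.

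Scr sample 1 decided the count of calls. Without it, limma called 69 loci (0.443%), 11 higher (0.0706%) and 58 lower (0.372%) with Scr. Of the 58 lower loci, 39 had 3 reads or fewer in both remaining Scr samples, and at 28 the value of Scr sample 1 lay inside the range of the control samples. At 9 of the 11 higher loci it lay inside that range too. The 11 loci were Rps16 and Rpl35 of the cytosolic ribosome, 3 loci of the mitochondrial genome, Tubb5, Arf5, Fam109b with Smdt1, Lars2, and the gene models Gm13394 and Gm10260. They were named by this fit after its values were seen. Among the narrow samples alone, 2 Scr against 1 control, 125 loci passed (0.802%), 111 higher (0.712%) and 14 lower (0.0899%). Most of these were higher with Scr, while most loci called without Scr sample 1 were lower. There the lone control sample is assumed to vary like the other groups, and 1 sample cannot show this. Fitted sample weights, lower for more variable samples, were 0.451 for control sample 3 and 2.26 and 3.21 for control samples 1 and 2. The split into broad and narrow was also made from these data. The 125 loci of this fit are therefore not read as calls. The same fit on the broad samples, 1 Scr against 2 controls, called 0.

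**Figure D2:**
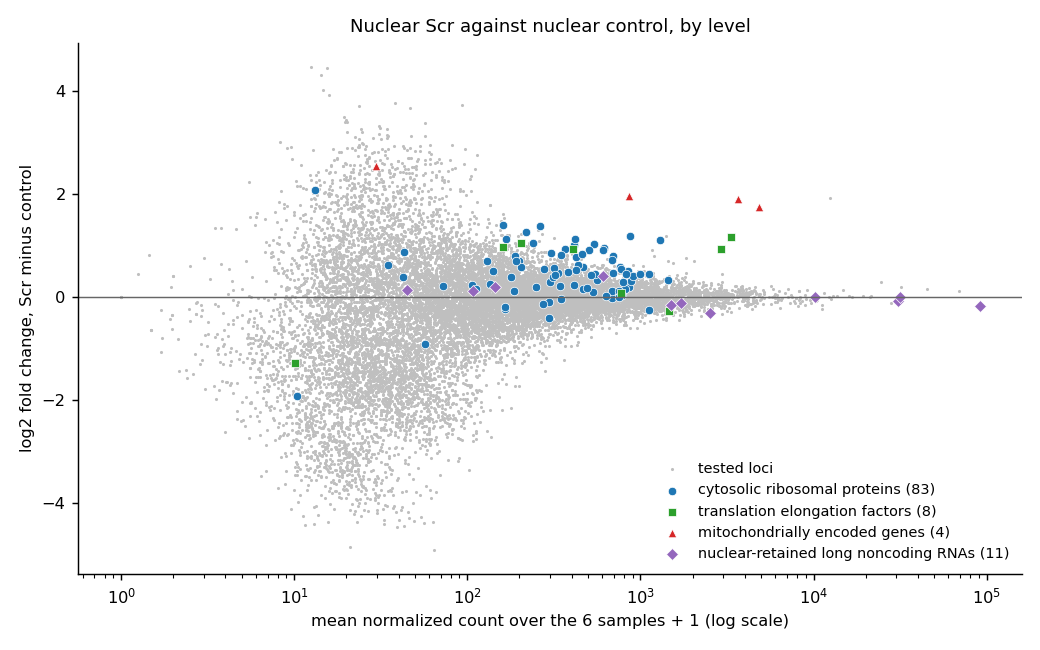
Each point is a tested locus, with its mean normalized count over the 6 samples plus 1 on the log-scaled horizontal axis and its log2 fold change, Scr minus control, on the vertical axis. The 4 mitochondrial loci and most loci of ribosomal proteins lie above 0, the nuclear-retained noncoding RNAs lie near 0, and the spread is widest below a normalized count of 100.

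RNAs of the mitochondrial genome showed the largest difference of the gene lists. The genome is transcribed inside mitochondria and encodes rRNAs, tRNAs and subunits of the respiratory chain. All 4 tested loci, of 12 with these symbols, were fitted higher with Scr, with log2 fold changes of 1.74 to 2.55 (median 1.92, against -0.07 over all tested loci), each at an unadjusted p below 0.05. The locus from mt-Atp6 to mt-Nd5, which includes the cytochrome oxidase subunits (chromosome M, 5328 to 14070), had 672, 1025 and 2786 normalized counts in the control samples and 1642, 6190 and 9632 in the Scr samples. Scr sample 1 lay inside the control range, and the other 2 Scr samples lay above it. Its log2 fold change was 1.89 ± 0.54 (SE), with an adjusted p of 0.838 by limma.

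The locus of both mitochondrial rRNAs with mt-Nd1 and mt-Nd2 (chromosome M, 1 to 5016) had 693, 1444 and 2914 normalized counts in control and 1050, 6229 and 16584 with Scr, again with Scr sample 1 inside the control range. The cytochrome b locus, mt-Cytb with mt-Tt, had 130, 202 and 608 and then 242, 1577 and 2407. mt-Nd6, a complex I subunit read from the opposite strand, was near the floor in control with 13.0, 8.07 and 0, against 4.57, 102 and 42.9 with Scr. In each locus the Scr value of sample 1 was the lowest of its group, and breadth moved with the level: control sample 3, the narrow control, was the highest control at 3 of the 4 loci. Within the broad samples the median of the 4 was 0.32 on the log2 scale and within the narrow samples 1.74. Mitochondrial loci took 0.0268%, 0.0463% and 0.106% of the reads in control and 0.0514%, 0.237% and 0.485% with Scr (exact permutation test, p = 0.2). In whole cell control samples they took 3.27% to 4.15%, so every nuclear sample was far below whole cells.

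Lars2, mitochondrial leucyl-tRNA synthetase (chromosome 9, 123366927 to 123462666), is named here after its values were seen. It had 988, 1556 and 6819 normalized counts in control and 1147, 55278 and 8729 with Scr. Scr sample 2 alone held 0.931% of its reads on this locus, against 0.0176% to 0.148% in the other 5 samples. The log2 fold change was 1.91 ± 0.81 and was 0.53 without Scr sample 2, while without Scr sample 1 it was 3.33.

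The cytosolic ribosomal proteins, the structural subunits of the ribosome, were fitted higher as a list. Of 83 tested members, 72 were higher with Scr, beside 43.8% of all tested loci, and their median log2 fold change was 0.44. At an unadjusted p below 0.05 were 16, all higher, beside 1.9% higher and 3.98% lower of all tested loci. The groups did not overlap at 7 with higher and 2 with lower values, together close to the 8.66% of all tested loci. None passed the adjusted threshold. Without Scr sample 1 the median was 0.75 and 2 members passed, Rpl35 and Rps16. Within the broad samples the median was 0.09, and within the narrow samples 0.30.

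The locus of Rps2, a protein of the small subunit, with the snoRNA Snora64 had 672, 670 and 1020 normalized counts in control and 879, 1976 and 2588 with Scr. Rpl13a, of the large subunit, shares a locus with Flt3l and snoRNAs, whose values were 373, 347 and 290 in control and 408, 738 and 1055 with Scr. Here all 3 Scr samples were above all controls. Rps24, of the small subunit, had 1178, 1042 and 1618 and then 1266, 1870 and 1624, and the groups overlapped. Ribosomal proteins together took 0.486%, 0.476% and 0.668% of the reads in control and 0.501%, 0.801% and 0.959% with Scr (exact permutation test, p = 0.2). Ribosomal protein genes have many processed pseudogenes, and how the authors' counting split reads with them is not given in the sources used here.

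Translation elongation factors, which carry tRNAs to the ribosome and move it along the message, stood in the same order. Of 8 tested members, 6 were fitted higher, beside 43.8% of all tested loci, with a median log2 fold change of 0.93. At an unadjusted p below 0.05 were 5, all higher, beside 1.9% of all tested loci. Eef1a1 had 1576, 1459 and 2789 normalized counts in control and 1970, 5143 and 7098 with Scr. Eef2 had 1674, 1596 and 2674 and then 2163, 4285 and 5208. In both, Scr sample 1 lay inside the control range, and the narrow samples of either group were above the broad samples of that group. Eif5a, placed in this list for its role at stalled ribosomes, was the member whose groups did not overlap, with 118, 117 and 80.7 in control and 183, 140 and 324 with Scr. Its log2 fold change was 0.96 ± 0.34. The 2 members fitted lower had values of -1.29 and -0.27 (Eef1d), and Eef1g had 0.07. Initiation factors, 53 tested, had 39 fitted higher, beside 43.8% of all tested loci, and a median of 0.12. At an unadjusted p below 0.05 were 3 higher, with Eif5a counted again, and 1 lower, beside 1.9% and 3.98% of all tested loci. The groups did not overlap at 7 with higher and 1 with lower values, beside 3.74% and 4.92%.

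**Figure D3:**
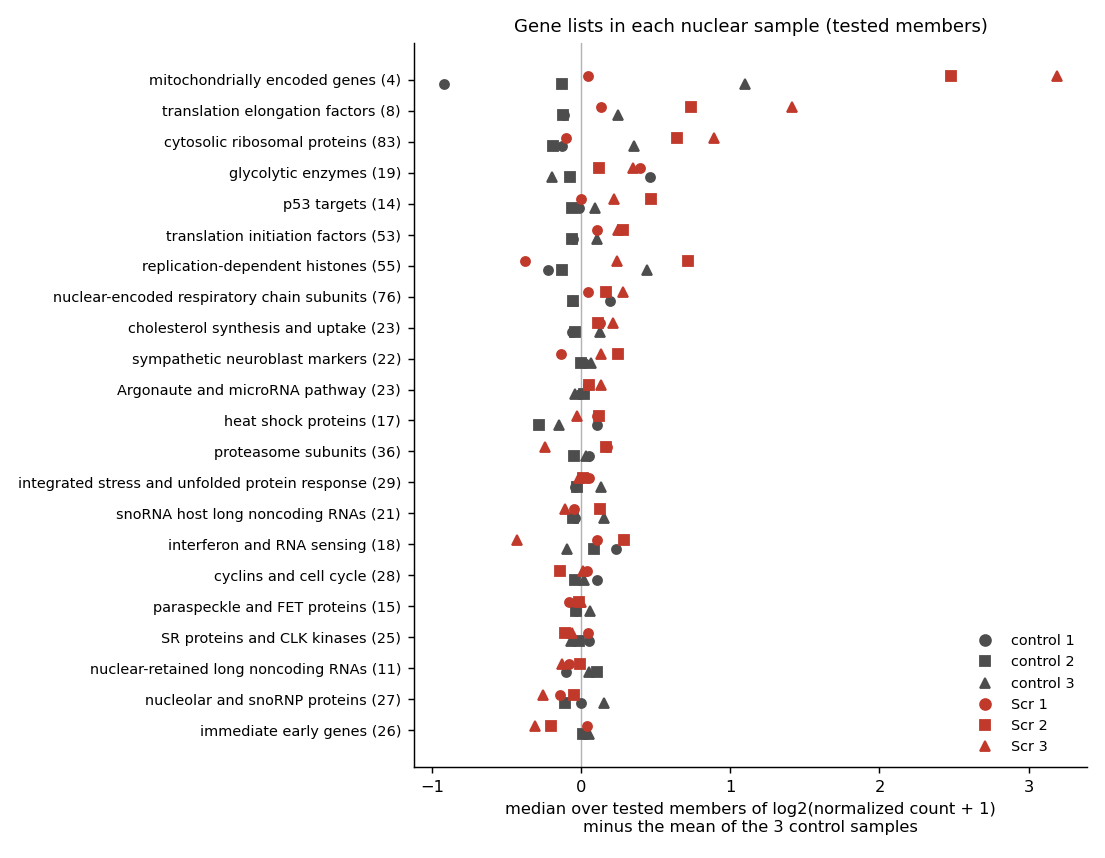
Each row is a gene list, with the number of tested members in brackets, and each symbol is 1 nuclear sample. The horizontal axis gives the median over the members of log2(normalized count + 1) minus the mean of the control samples. Scr samples 2 and 3 lie to the right of the control samples for mitochondrial, elongation factor and ribosomal protein RNAs, Scr sample 1 lies within the range of the controls for all 3, and most other lists lie within 0.5 of 0.

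Other housekeeping groups showed smaller differences. Over all tested loci, 1.9% were higher and 3.98% lower with Scr at an unadjusted p below 0.05. Nuclear-encoded subunits of the respiratory chain, 76 tested, had a median log2 fold change of 0.10, with 3 higher and 2 lower at an unadjusted p below 0.05. Uqcrh, a complex III subunit, had 17.3, 22.9 and 50.6 normalized counts in control, 62.5 in Scr sample 1 and 0 in Scr samples 2 and 3. Proteasome subunits, 36 tested, had a median of -0.05, with 2 higher and 1 lower. Glycolytic enzymes, 19 tested, had a median of 0.22 with 2 higher. Pgk1, which makes ATP in glycolysis, had 544, 246 and 266 in control and 516, 833 and 805 with Scr, so that control sample 1 and Scr sample 1 lay together. Replication-dependent histones, 55 tested, had a median of 0.02 with 1 higher and 1 lower.

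RNAs that stay in the nucleus differed little between the groups. Tested were 11 nuclear-retained long noncoding RNAs, of 19 loci with these symbols. None reached an unadjusted p of 0.05, beside 5.88% of all tested loci, and 11 loci are too few to tell these shares apart. The log2 fold changes ran from -0.32 to 0.41 with a median of -0.01. Malat1, the noncoding RNA of nuclear speckles (chromosome 19, 5794052 to 5802737), had 97679, 91489 and 101533 normalized counts in control and 91317, 84335 and 79997 with Scr. Every Scr sample lay below every control, as at 4.92% of all tested loci, and the log2 fold change was -0.19 ± 0.28. Neat1, the scaffold of paraspeckles, had 32003, 30414 and 32452 in control and 32299, 30012 and 27265 with Scr. Xist, which coats an inactive X chromosome, had 29987, 30873 and 33618 and then 34962, 30938 and 28743. Kcnq1ot1, an imprinted noncoding RNA, had a log2 fold change of -0.01. The list took 3.10%, 2.95% and 3.14% of the reads in control and 3.05%, 2.74% and 2.57% with Scr (exact permutation test, p = 0.2). Proteins of paraspeckles (15 tested) had a median of -0.01, and SR proteins with their CLK kinases (25 tested), which act in splicing, -0.06. Both lists had none at an unadjusted p below 0.05, beside 5.88% of all tested loci.

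Of the other RNAs with the highest counts, Noct, Gm42860 and Slc38a6 varied within each group. Noct had 53703, 65616 and 80064 normalized counts in control and 54126, 84845 and 77970 with Scr. Gm42860 had 34317, 40006 and 54577 and then 35408, 57581 and 50345. The narrow samples were the highest in both groups, and the log2 fold changes were 0.11 and 0.15. Slc38a6 had a log2 fold change of 0.18 and the same order of broad and narrow samples. In nuclear miR-92b samples 1, 2 and 3, all broad, Noct rose as well, with 59801, 68453 and 73394. Gm42860 had 41155, 43137 and 47288 there. The part of breadth and of the sample number was not tested.

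Genes of the responses that transfection of a double-stranded RNA can set off gave no common direction. Interferon-induced genes and RNA sensors were mostly too low to test, with 18 of 53 loci tested. Of these, 8 were fitted higher and 10 lower, beside 43.8% and 56.2% of all tested loci. At an unadjusted p below 0.05 was 1, lower with Scr, beside 3.98% of all tested loci. That locus was Ifi35, with 53.4, 39.0 and 82.3 normalized counts in control, 32.0 in Scr sample 1 and 0 and 1.26 in Scr samples 2 and 3. Adar, which edits double-stranded RNA, had 1522, 1674 and 1430 in control and 1668, 1184 and 1246 with Scr. The antiviral sensors and effectors Ddx58, Isg15, Ifit1 and Oas1a had at most 41.6 normalized counts in any of the 6 samples.

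The integrated stress and unfolded protein response had a median log2 fold change of 0.00 over 29 tested members. At an unadjusted p below 0.05 were 1 higher and 2 lower, beside 1.9% and 3.98% of all tested loci. Asns, asparagine synthetase, had 3347, 3275 and 3359 normalized counts in control and 3667, 3358 and 3286 with Scr. Edem1, which directs misfolded proteins out of the endoplasmic reticulum, had 664, 707 and 570 and then 800, 1222 and 728, with no overlap and a log2 fold change of 0.47 ± 0.20. Heat shock proteins, 17 tested, had a median of 0.03 with 2 higher, among them the chaperone Hsp90ab1 with 1623, 1076 and 1989 in control and 1609, 2960 and 3050 with Scr. p53 targets, 14 tested, had a median of 0.19 and none at an unadjusted p below 0.05.

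Lipid and early response genes were given as lists too. Cholesterol synthesis and uptake, 23 tested, had 18 members fitted higher, beside 43.8% of all tested loci, and a median log2 fold change of 0.20. At an unadjusted p below 0.05 were 2, all higher, beside 1.9% of all tested loci. Msmo1, a sterol oxidase that shares its locus with Klhl2, had 715, 699 and 623 normalized counts in control and 771, 1093 and 1044 with Scr. Immediate early genes, the transcription factors and phosphatases induced within minutes of a stimulus, had 19 of 26 tested members fitted lower, beside 56.2% of all tested loci, and a median of -0.33. Nr4a3, a nuclear receptor of this class, had 54.9, 56.5 and 25.3 in control and 9.14, 0 and 22.7 with Scr, and Fos had 73.7, 59.2 and 38.0 and then 15.2, 0 and 60.5. Egr1, with 296, 469 and 551 and then 340, 777 and 710, had a log2 fold change of 0.43. Without the narrow samples the median of the list was 0.05.

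RNAs for the proteins that a mimic is loaded into and works through were mostly at like levels in both groups. All 23 loci of the Argonaute and miRNA pathway were tested, with 16 fitted higher and 7 lower, beside 43.8% and 56.2% of all tested loci. Their log2 fold changes ran from -1.28 to 0.59 with a median of 0.06. At an unadjusted p below 0.05 was 1, higher with Scr, beside 1.9% of all tested loci. Ago2, the Argonaute that cuts its target, had 3173, 3251 and 3289 normalized counts in control and 3701, 3385 and 3549 with Scr. Every Scr sample lay above every control, as at 2 of the 23 loci and at 3.74% of all tested loci. The log2 fold change of Ago2 was 0.13. Ago3 had 427, 406 and 280 and then 486, 811 and 421, and a log2 fold change of 0.59 ± 0.27. Dicer1, which cuts miRNA precursors, had 887, 750 and 733 and then 881, 912 and 865. Lin28b, which blocks processing of let-7, had 2337, 2684 and 2726 and then 2610, 2637 and 2660. Nucleolar and snoRNP proteins, 27 tested, had 8 fitted higher, beside 43.8% of all tested loci, and a median of -0.12. Npm1 had a log2 fold change of 0.32 and Ubtf, a factor of rRNA transcription, of -0.57.

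The loci with the smallest p-values were low or middle in level. Those with at least 50 normalized counts on average over the 6 samples and groups that do not overlap numbered 463 with higher and 417 with lower values in Scr, and 12 in each direction, with the smallest unadjusted p, are described. Their groups do not overlap by the way they were chosen, which is no finding. All had an adjusted p of 0.838 by limma. Of these 24, Fam109b with Smdt1, Tubb5 and 7 with lower values passed when Scr sample 1 was left out.

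Among those with higher values were RNAs of the cytoskeleton. Tubb5, a beta tubulin (chromosome 17, 35833921 to 35838306), had 911, 627 and 876 normalized counts in control and 955, 1925 and 3139 with Scr, a log2 fold change of 1.18 ± 0.35. Cfl1, the actin-severing protein cofilin (chromosome 19, 5490455 to 5495201), had 155, 136 and 133 and then 195, 283 and 395, a log2 fold change of 0.98 ± 0.28. Csrp1, a LIM protein bound to actin filaments, had 56.3, 56.5 and 3.16 and then 108, 109 and 122. Its log2 fold change was 2.25, and with 1 of the 6 samples left out it ran from 0.99 to 2.88. In the broad samples alone the values of Tubb5 and Cfl1 were 0.34 and 0.43.

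Regulators of transcription were among them as well. Pou2f1, the octamer-binding factor Oct-1 (chromosome 1, 165781075 to 166002678), had 495, 593 and 408 normalized counts in control and 710, 888 and 865 with Scr, a log2 fold change of 0.73 ± 0.19. Mbd3, a subunit of the NuRD chromatin complex (chromosome 10, 80392354 to 80399550), had 43.3, 41.7 and 77.5 and then 88.4, 183 and 170, a log2 fold change of 1.41 ± 0.40. Within the broad and within the narrow samples the log2 fold changes were 0.39 and 1.10 for Pou2f1 and 1.04 and 1.18 for Mbd3. Their positive sign follows from the way the loci were chosen and is no finding.

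Fam109b and Smdt1 share a locus (chromosome 15, 82338942 to 82350130), and Smdt1 encodes a subunit of the mitochondrial calcium uniporter. It had 15.9, 43.0 and 36.4 normalized counts in control and 65.5, 244 and 221 with Scr, a log2 fold change of 2.34 ± 0.58. Nme1 and Nme2, nucleoside diphosphate kinases counted together with Gm20390, had 133, 134 and 125 and then 189, 251 and 697. The others were Pgrmc1 and Pgrmc2, heme-binding membrane proteins, Rabac1 of vesicle traffic, C1ql1, a secreted synaptic protein, and Ppp2r2c, a regulatory subunit of protein phosphatase 2A. Their log2 fold changes were 1.70, 1.13, 3.72, 1.18 and 0.90. Rabac1 had a control sample at 0, with 28.9, 29.6 and 0 in control and 38.1, 226 and 233 with Scr. With 1 of the 6 samples left out, its log2 fold change ran from 2.08 to 4.57.

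The loci with lower values were of 2 kinds, low ones, some of them near 0 in Scr samples 2 and 3, and those at middle levels. Zfp874b, a zinc finger gene (chromosome 13, 67471514 to 67484269), had the smallest p of all tested loci, 0.000117 unadjusted. It had 89.5, 64.5 and 185 normalized counts in control, 39.6 in Scr sample 1 and 0 in Scr samples 2 and 3, and the nuclear miR-92b samples had 54.6, 74.8 and 59.2. Emc6, of a complex that inserts membrane proteins, had 67.9, 67.2 and 160 in control, 62.5 in Scr sample 1 and 1.15 and 1.26 in the other 2. Psmc3, an ATPase of the proteasome cap, had 99.6, 90.1 and 101 and then 83.8, 31.1 and 6.31. Gm11734, Gnb1l with Gm16314, Frmd8, Rbm22 of the spliceosome and the secreted protein Fndc4 had the same order, with Scr sample 1 the highest of its group. Not all of these were near 0 in Scr samples 2 and 3. Fndc4 had 26.5 and 79.4 there, Rbm22 15.0 and 27.7, and Frmd8 28.8 and 1.26. Frmd8 has the same listed region as Neat1, whose counts are far higher. How the authors' counting split reads between these loci is not given in the sources used here. Without Scr samples 2 and 3, the broad samples gave log2 fold changes of -0.92 for Zfp874b, -0.11 for Emc6 and -0.18 for Psmc3.

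The loci at middle levels had reads in every sample. Ubp1, a transcription factor (chromosome 9, 113930934 to 114046191), had 1054, 1112 and 970 and then 882, 562 and 663, a log2 fold change of -0.60 ± 0.18. Sept10, a septin, had 518, 526 and 644 and then 393, 229 and 314. Ranbp10 with Gfod2 had 342, 363 and 386 and then 265, 152 and 164. Within the broad samples, 1 Scr against 2 controls, the log2 fold changes of these 3 ran from -0.41 to -0.30. Their negative sign follows from the way the loci were chosen and is no finding.

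**Figure D4:**
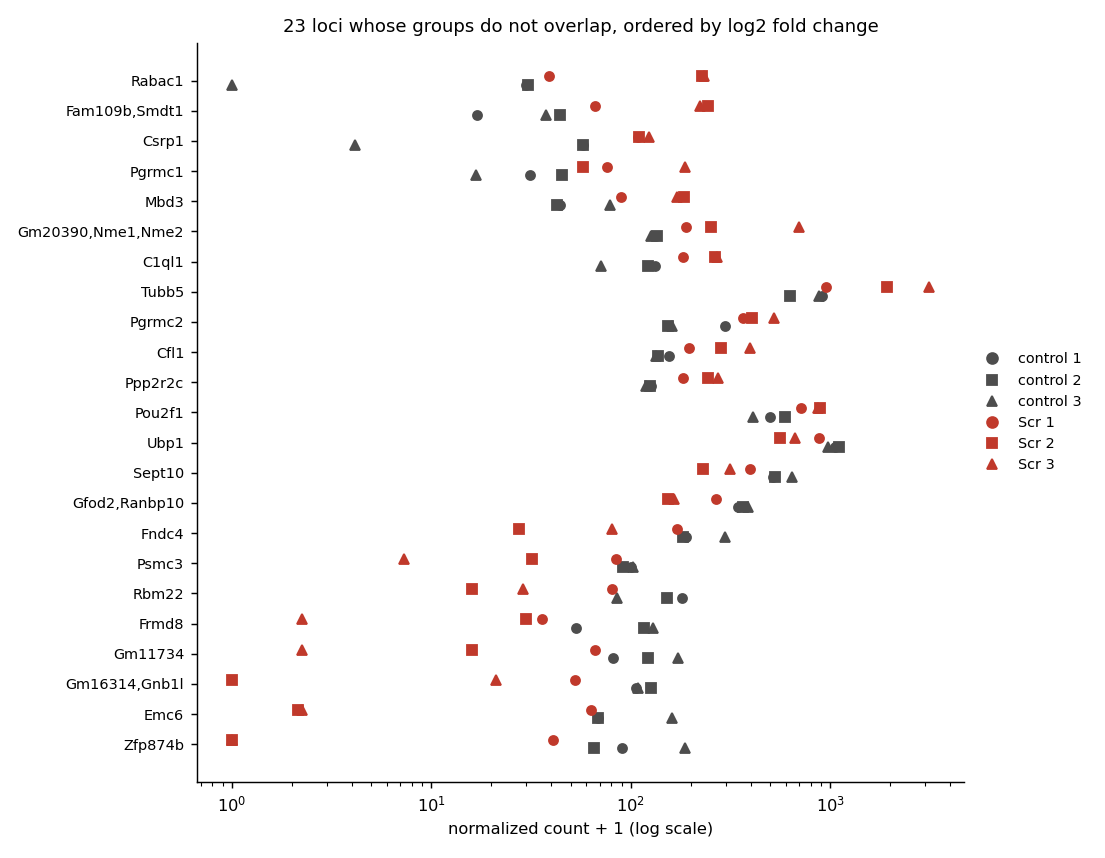
Each row is 1 of 23 of the 24 loci with groups that do not overlap and the smallest p-values, and each symbol is the normalized count plus 1 of 1 nuclear sample on a log scale, with the highest fold change on top. Scr sample 1 is the Scr sample nearest to the controls at most loci, as for Tubb5 with 955 against 1925 and 3139, and Zfp874b reaches 0 in Scr samples 2 and 3.

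The share of loci with higher values in Scr varied with where an RNA is found in the cell, more than the share with lower values did. For each tested locus the level in whole cell miR-92b samples 1 and 2 was set against the level in the 3 nuclear miR-92b samples, which are not part of the comparison. Whole cell miR-92b sample 3 was left out because it held the fewest loci. The loci were then split into 5 groups of equal size. In the group richest in whole cells, 5.58% of 3116 loci were higher with Scr in the nucleus at an unadjusted p below 0.05, against 0.58% of 3116 in the group richest in nuclei, beside 1.9% overall. The shares of lower loci were 4.43% and 4.24%, beside 3.98% overall. With loci of a mean normalized count of at least 100 only, the shares were 7.03% and 0.435% for higher and 2.05% and 1.62% for lower loci. Their median log2 fold changes were 0.10 and -0.04, and within the broad samples 0.07 and -0.01. With whole cell miR-92b sample 3 included, the order over all loci was the same. Loci are not independent, so these shares are a description.

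By gene type, 10590 protein-coding loci had a median log2 fold change of -0.05, with 2.33% higher and 3.96% lower at an unadjusted p below 0.05. The 2638 long noncoding loci had a median of -0.25, with 0.19% higher and 4.09% lower. The types are those of GENCODE release M21 (GRCm38), matched by symbol for 13879 of 14382 tested loci with 1 symbol (96.5%). The part of depth, breadth and the recovery of cytoplasmic RNA in these shares was not tested.

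Whole cell samples show what the same treatment gave without isolation of nuclei. In them limma called 0 of 15579 loci for Scr against control (0%), with 793 at an unadjusted p below 0.05 (5.09%). The test of the difference between both compartments called 0 as well (0%), with 823 (5.28%), while DESeq2 called 8 (0.0514%, and 5.59% at an unadjusted p below 0.05) and edgeR 0 (4.33%). The lists that were fitted higher in the nucleus had values below 0 in whole cells: the median log2 fold change of mitochondrial RNAs was -0.29 there, that of ribosomal proteins -0.45 and that of elongation factors -0.45. No member of these lists passed the test of the difference, with a smallest adjusted p of 0.886 by limma. Lists near 0 in the nucleus were as low in whole cells: replication-dependent histones had -0.51 and nuclear-encoded respiratory chain subunits -0.48. Over all tested loci the whole cell median was -0.09. At the common depth the whole cell Scr samples held 14829, 16841 and 16036 loci and the whole cell controls 16710, 17386 and 18275. Argonaute and miRNA pathway genes had 0.05 in whole cells and 0.06 in nuclei. In whole cells, Tubb5 and Cfl1 had log2 fold changes of -0.43 and -0.25, and Pou2f1 had 0.08.

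**Figure D5:**
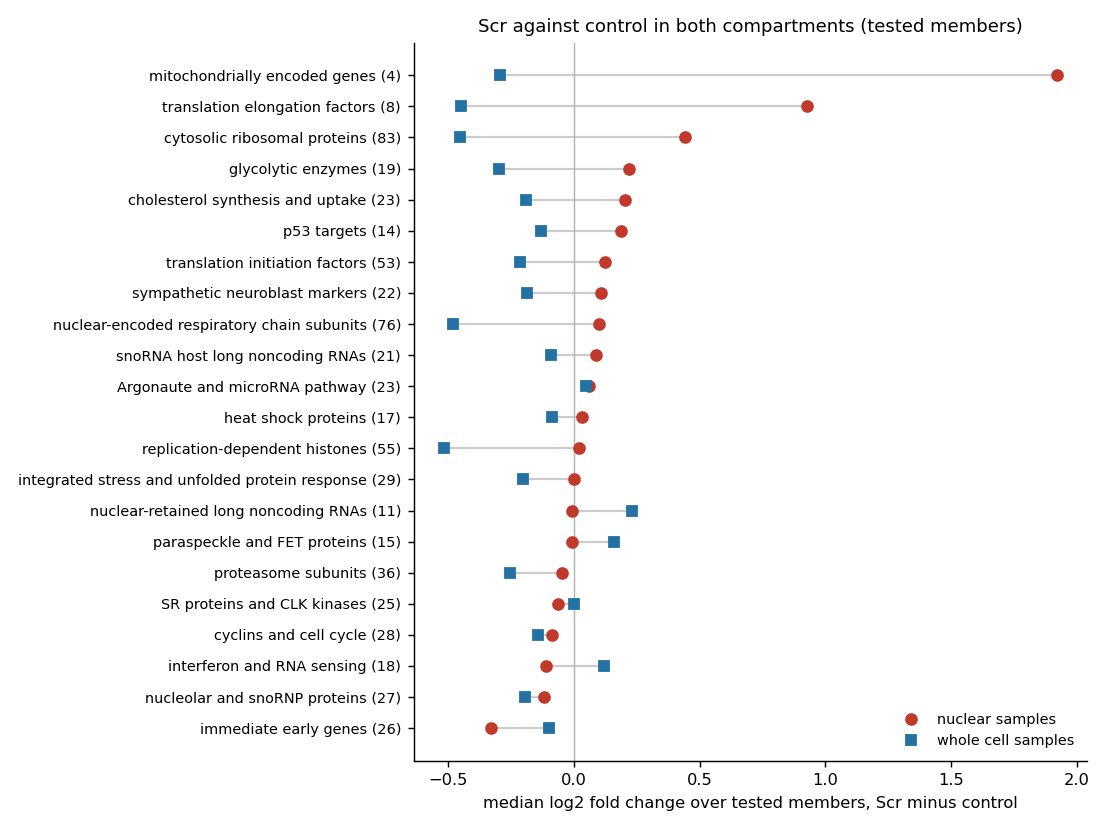
Each row is a gene list with the number of tested members, and the symbols give the median log2 fold change of Scr over control in nuclear (circles) and whole cell (squares) samples. Mitochondrial RNAs, elongation factors and ribosomal proteins lie at 1.92, 0.93 and 0.44 in the nuclear samples and between -0.45 and -0.29 in the whole cell samples.

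The nuclear miR-92b samples were compared with the same control samples, so that both comparisons share them. limma called 0 loci (0%) there, with 50 at an unadjusted p below 0.05 (0.321%). For the mitochondrial loci the median log2 fold change against control was 1.92 with Scr and 0.59 with miR-92b, for ribosomal proteins 0.44 and 0.15, and for elongation factors 0.93 and 0.18. For Tubb5 it was 1.18 with Scr and 0.08 with miR-92b, for Cfl1 0.98 and 0.05, and for Pou2f1 0.73 and 0.47. For Zfp874b it was -4.91 with Scr and -0.71 with miR-92b. All nuclear miR-92b samples were broad, with 20084 to 20720 loci at the common depth.

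Markers of the cell line were at like levels. The summed normalized count of 29 loci of sympathetic neuroblast markers, among them Phox2a, Hand2, Isl1 and Ret, ran from 24381 to 24760 in control and from 24210 to 26889 with Scr. Of these loci 22 were tested, and none reached an unadjusted p of 0.05, beside 5.88% of all tested loci. Of the 29 loci, 5, among them the neurofilament genes Nefl and Nefm, were at 0 in all 6 samples. Markers of other cell types stayed far lower. The sum over 8 astrocyte loci ran from 46.2 to 77.5 and from 49.2 to 110, over 8 of microglia and leukocytes from 0 to 13.0 and from 1.26 to 79.4, and over 7 of fibroblasts from 0 to 10.1 and from 0 to 37.8. Those of 7 oligodendrocyte and Schwann cell loci ran from 102 to 158 and from 55.5 to 160, and those of 6 epithelial loci from 0 to 5.38 in control and were 0 with Scr. Between 2 and 5 loci of each of these 5 lists were at 0 in all 6 samples.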

How the data were processed

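Nuclear Scr and control samples of N2A cells, 3 each, were grouped by their labels. The members, gene lists and tests were chosen with earlier results of these data known. The authors made stranded libraries from poly(A) RNA taken with oligo-dT beads and processed the reads with bcl2fastq 2.17, Trimmomatic 0.30, TopHat2 and Cufflinks on GRCm38 (mm10), per the submitters' processing notes. Which annotation release and which versions of TopHat2 and Cufflinks were used is not given in the sources used here. As deposited, 1 table holds a signal, normalized counts, in which the fragments of a locus were scaled by a size factor of the sample. Of 635205 values above 0, 634904 (99.95%) were whole multiples of 1 read within 0.02 reads, and the remainder lay within the rounding of the file, so reads were recovered. The deposited FPKM values are relative to transcript length and mapped fragments and served as an alternative. The authors' comparison tables, with log2 fold changes, p-values and q-values of Cuffdiff, were not used.

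Of 168136 loci, 52179 had a symbol, and the others, with 10.4% to 15.3% of the reads of the 6 samples, were left out. Of those with a symbol, 1548 join several genes, whose values cannot be split, and 26464 share their listed region with another locus. Listed starts were raised by 1 to count from 1.

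limma 3.58.1 with a variance trend was fitted to log2(normalized count + 1) of all 18 samples with a term for each of the 6 groups. Tests were two-sided, with Benjamini-Hochberg adjustment over 15579 loci and a threshold of 0.05. A fold change on this scale understates the change of low loci. edgeR 4.0.16 and DESeq2 1.42.0 were run on recovered reads as alternatives, and DESeq2 gave no adjusted p for 18 loci. The steps were tested on simulated data. Read shares and numbers of loci were compared by exact permutation tests of the difference of means (SciPy 1.17.1). Named were, by rule, up to 12 loci per direction without overlap (mean of at least 50, smallest unadjusted p), the 8 loci with the highest mean, and from each of the lists, other than those of other cell types, 2 with the highest mean and 1 with the smallest p, 91 loci in all, of which some are not reported here. Further list members and Lars2 are named after their values were seen. Other alternatives were the pseudocount (0.5 or 8), the filter (a mean of at least 1 or 50, none, or over the 6 samples), FPKM with a pseudocount of 0.1, the same median or quantiles in each sample, the 6 samples alone, sample weights, the replicate number as a block, the number of loci as a covariate, broad or narrow samples only, loci with 1 symbol, and each sample left out in turn. For the compartments, a fit of the 12 samples and leaving out whole cell samples were added after the data were seen.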

Additional observations from a re-analysis of the deposited data

Results flagged for a closer look

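At 8 named loci every nuclear Scr sample lay on 1 side of every nuclear control and every whole cell Scr sample on the other side of every whole cell control. The test of the difference passed at none of them (adjusted p = 0.886 each by limma), and 7 of the 8, all but Eif5a, had been named because their groups were apart in the nucleus. The log2 fold change in the nucleus minus that in whole cells was 3.69 for Fam109b with Smdt1, 2.95 for Csrp1, 1.85 for Mbd3, 1.85 for Nme1 and Nme2 with Gm20390, 1.64 for Eif5a and 1.23 for Cfl1, which were higher in the nucleus and lower in whole cells with Scr. It was -2.35 for Fndc4 and -0.76 for Ubp1, which were lower in the nucleus and higher in whole cells. Fam109b with Smdt1 had 278, 214 and 288 normalized counts in whole cell control and 67.5, 151 and 98.2 in whole cell Scr samples. Over all 15579 tested loci, 61 (0.392%) were apart as the 6 were and 44 (0.282%) as the 2 were, beside 21 (0.135%) higher in both compartments and 47 (0.302%) lower in both.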

How the results depend on the processing

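The count of 0 loci for nuclear Scr against control was the same under 21 of 24 alternatives. It was 1 with FPKM (2010107E04Rik, lower with Scr), and 125 in the narrow samples. Leaving out 1 sample gave 0 to 69 calls, with 69 without Scr sample 1 and 0 without any other. For the difference between the compartments it was 8 with DESeq2, and leaving out 1 sample gave 0 to 3, with 3 without nuclear Scr sample 1 (Abcc3, Zfp874b and Gpatch3 with Gpn2). These and 2010107E04Rik are named after their values were seen, apart from Zfp874b. The other alternatives gave 0. Medians of the lists of mitochondrial RNAs (0.32 to 2.89), elongation factors (0.39 to 1.13) and ribosomal proteins (0.03 to 0.83) stayed above 0 on the log2 scale under all alternatives run. Of 599 values of list medians under alternatives, 55 had the other sign, and of 2152 values of named loci, 98. The cause of these changes was not tested. The correlation of the deviations of same-numbered samples was 0.109, -0.031 and 0.041, and that of differently numbered samples ran from -0.109 to 0.067. With the replicate number as a block 0 loci passed. These values cannot decide whether same-numbered samples belong together, since each deviation is taken from a mean of only 3 samples. Loci with few reads are the least certain, and 3 reads or fewer were common there in the narrow samples, although Scr samples 2 and 3 had the most reads of the 6.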

Other observations

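Glycolytic enzymes and heat shock proteins followed the sample number in part. The summed normalized count of 24 loci of glycolytic enzymes was 50995, 39801 and 37163 in the nuclear control samples, 49475, 42396 and 42432 with Scr and 51102, 41431 and 42239 with miR-92b, so that sample 1 was the highest in each group. Heat shock proteins had 16498, 12594 and 14251 in control, 16158, 17408 and 16571 with Scr and 18406, 13529 and 12633 with miR-92b, and sample 1 was the highest in 2 of the 3 groups. Pkm, the pyruvate kinase of glycolysis, had 15067, 12066 and 11038 in control and 14790, 11983 and 10552 with Scr. The labels give no batch for the sample numbers, and the difference was not tested.

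Replication-dependent histone RNAs, most of which lack a poly(A) tail, summed to 5599, 7170 and 10095 normalized counts in control and 5338, 11062 and 8824 with Scr. The narrow samples held the most in both groups. Hist2h3c2 alone had 198, 698 and 1006 in control and 199.6, 634 and 566 with Scr.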
